A study of Homo sapiens with 40 samples.

Results

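Mitochondrial ribosomal proteins, here called mitoribosomal proteins, are encoded in the nucleus and build the ribosome that translates the messenger RNAs of the mitochondrial genome. The genes described were the protein-coding genes with an MRPL symbol (large subunit, also called 39S) or an MRPS symbol (small subunit, also called 28S). They numbered 78 of the 60708 genes counted, of which 19942 were protein-coding. By symbol, 49 belonged to the large subunit and 29 to the small subunit. Structures place MRPS18A and MRPS30 in the large subunit in spite of their names, and MRPS36 is known as a component of the 2-oxoglutarate dehydrogenase complex.

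Mitoribosomes make only the few hydrophobic core subunits of the respiratory chain and ATP synthase, so the 2 subunits have to be assembled from proteins imported from the cytosol and from ribosomal RNAs transcribed inside the organelle. Many mitoribosomal proteins descend from bacterial ribosomal proteins, and others were added in the mitochondrial lineage. A bacterial counterpart was assigned to 48 of the 78, 30 in the large and 18 in the small subunit, and the other 30 were treated as specific to mitochondria.

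RNA was sequenced in 24 libraries that formed 8 groups of 3. MI-spheres were 3D cultures of MCF-10A, a human mammary epithelial line that does not form tumors, and MII-spheres were 3D cultures of its HRAS-transformed derivative MCF-10AneoT; each was left untreated or stimulated with TGFβ1 at 2.5 ng/ml for 16 h. The other 4 groups were 2D monolayers of MDA-MB-231, a mesenchymal-like breast carcinoma line: wild type (WT), a SLUG knockout (KO) made with Cas9 ribonucleoprotein and expanded from single-cell clones, a control siRNA (Csi), and combined siRNAs against SMAD2, SMAD3 and SMAD4. Each sphere group therefore stands for 1 cell line and 1 time point, and the labels do not say whether replicates were separate cultures, though the study's methods speak in general of independent repeats. Where they were not, p-values measure only a technical spread between libraries.

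Libraries held 14124688 to 38406952 gene counts. HRAS averaged 220 CPM (counts scaled to a common library size) in untreated MII-spheres and 40.8 in MI-spheres. SMAD2 fell from 90.6 to 23.97, SMAD3 from 266 to 166 and SMAD4 from 55.4 to 16.8 CPM with the siRNAs. SNAI2, which encodes SLUG, averaged 28.3 CPM in WT and 61.9 in the libraries labelled SLUG KO, so its mRNA level did not check that label. All 8 basal epithelial markers exceeded 1 CPM in the sphere groups, but 4 or 5 of them also did in each MDA-MB-231 group. LAMB3 and ITGB4 averaged 531 and 352 CPM in WT, beside 467 and 462 in untreated MII-spheres. KRT5, KRT14, KRT17 and KRT6A stayed below 1 CPM in WT. VIM, ZEB1 and AXL marked MDA-MB-231. SPARC, the fourth mesenchymal marker, reached at most 4.08 CPM in any group mean, and the immune markers PTPRC, CD3E and CD68 stayed near 0. PECAM1, an endothelial marker, averaged 9.80 CPM in untreated MI-spheres and 104.7 in untreated MII-spheres; its part in the results was not tested. One WT library, replicate 2, stood apart, correlating with the other WT libraries at r = 0.957 and 0.952, whereas replicate pairs of the other 7 groups reached at least 0.984.

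Nuclear genes for mitochondrial proteins are known targets of NRF1, ETS-family factors such as GABPA, and YY1. Promoters are shown with the letters of these factors' motifs, as a description of the genes and not of their regulation in these cells. RefSeq windows (GRCh38.p14) of 250 bases before to 50 after the annotated start were on hand for 69 of the 78 genes. The NRF1 motif (GCGCA, any base, then GCGC) occurred in 8 windows (11.6%), beside 8.58% of 15843 windows of protein-coding genes. The ETS motif CCGGAAG occurred in 29 (42.03%), beside 14.2%. The YY1 motif AANATGGC occurred in 25 (36.2%), beside 7.92%. At least 1 of these 3 motifs occurred in 49 windows (71.01%), beside 26.6% of the protein-coding windows and 20.8% of all 27305. By contrast, the SP1 motif GGGCGG occurred in 60.9% against 58.5%, and the E-box CACGTG in 8.70% against 8.88%. Both strands were searched, none of these 5 strings contains another, and matches that partly overlapped were counted for each motif. The shares are descriptions without a test. Of the YY1 matches, 22 of 28 lay after the start, whereas 33 of 39 ETS matches and 9 of 9 NRF1 matches lay before it. Matches were counted per strand, so the 9 include the MRPL17 site once for each strand.

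The 200 bases directly before the RefSeq start are given 5′ to 3′ on the gene's strand for 4 genes that the results name below. Capitals mark the NRF1 or ETS matches. MRPL17 carried an NRF1 match, which reads the same on both strands, MRPL51 an ETS match on each strand, and MRPL48 and MRPS26 a single ETS match on the opposite strand.
MRPL17 (chr11:6683341-6683540, minus strand): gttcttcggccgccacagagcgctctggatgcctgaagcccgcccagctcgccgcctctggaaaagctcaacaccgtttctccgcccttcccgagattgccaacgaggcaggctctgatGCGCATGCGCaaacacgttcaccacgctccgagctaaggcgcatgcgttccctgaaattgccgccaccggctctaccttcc
MRPL51 (chr12:6493263-6493462, minus strand): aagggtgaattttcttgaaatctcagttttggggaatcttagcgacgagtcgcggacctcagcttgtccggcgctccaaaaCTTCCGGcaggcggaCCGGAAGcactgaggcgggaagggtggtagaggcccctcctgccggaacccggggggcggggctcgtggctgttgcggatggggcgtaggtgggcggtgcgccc
MRPL48 (chr11:73787674-73787873, plus strand): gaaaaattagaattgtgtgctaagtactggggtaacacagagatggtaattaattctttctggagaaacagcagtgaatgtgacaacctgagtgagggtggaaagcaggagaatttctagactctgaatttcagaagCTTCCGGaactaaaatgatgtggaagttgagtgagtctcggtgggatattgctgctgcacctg
MRPS26 (chr20:3045852-3046051, plus strand): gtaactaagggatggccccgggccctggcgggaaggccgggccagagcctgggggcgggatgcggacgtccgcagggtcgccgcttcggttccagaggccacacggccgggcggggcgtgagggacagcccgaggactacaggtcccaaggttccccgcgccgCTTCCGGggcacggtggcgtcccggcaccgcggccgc

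The 78 genes lay on 21 chromosomes. Their exons were short, with a median summed length of 2544 bp against 4352 bp for protein-coding genes. Exons of 41 genes overlapped exons of another gene, and in 30 of them the partner lay on the opposite strand. Counting ignored strand and left out fragments that fell on several genes, so shared bases yielded no counts, and antisense RNA without an annotated exon would have been added to the gene. In 9 genes more than 50% of the coding bases were shared, and fragments on those bases were not counted: MRPS17, MRPL53, MRPL12, MRPL30, MRPL38, MRPS24, MRPL2, MRPL46 and MRPS28. For MRPS17 and MRPL53 the shared part was 100% of the coding bases, for MRPS24 it was 92.2%, for MRPL38 94.1% and for MRPL46 64.0%. Results for these 9 are uncertain, and the 50% limit was chosen after their values were seen. Named pseudogenes existed for 36 genes, 79 in all, and drew 0.0537 to 0.221% of the counts of the genes themselves.

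Per length, mRNA levels spread widely. MRPL14 had the highest mean level over the 24 libraries, 95.1 CPM per kb, followed by MRPL41 with 75.8 and MRPS10 with 62.9. MRPL14 and MRPL41 are large-subunit proteins and MRPS10 is a small-subunit protein. At the other end MRPL53 collected 2 counts in all 24 libraries, MRPS24 averaged 0.28 CPM per kb and MRPL46 0.78, and all 3 are among the 9 genes with mostly shared coding bases. MRPL53 did not pass the filter on low counts, so 77 of the 78 genes were tested in each comparison. Medians over the 78 genes were 14.8 CPM per kb in untreated and 20.6 in TGFβ-stimulated MI-spheres, and 12.5 and 14.9 in the matching MII-spheres. In MDA-MB-231 the medians were 13.7 for WT, 15.9 for SLUG KO, 12.3 for Csi and 11.6 for siSMAD2/3/4. For 53 genes the highest of the 8 group means was in TGFβ-stimulated MI-spheres, and for 34 the lowest was in siSMAD2/3/4. The same counts over all genes were not taken, so they do not mark the family out. MRPS21 varied most between group means, 8.98-fold, from 6.80 CPM per kb in Csi to 61.1 in TGFβ-stimulated MI-spheres. MRPS18B varied least among the 77 tested genes, 1.499-fold, followed by MRPS18A at 1.51-fold. Lines, culture form and sequencing runs differ between these groups and cannot be told apart here.

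**Figure D1:**
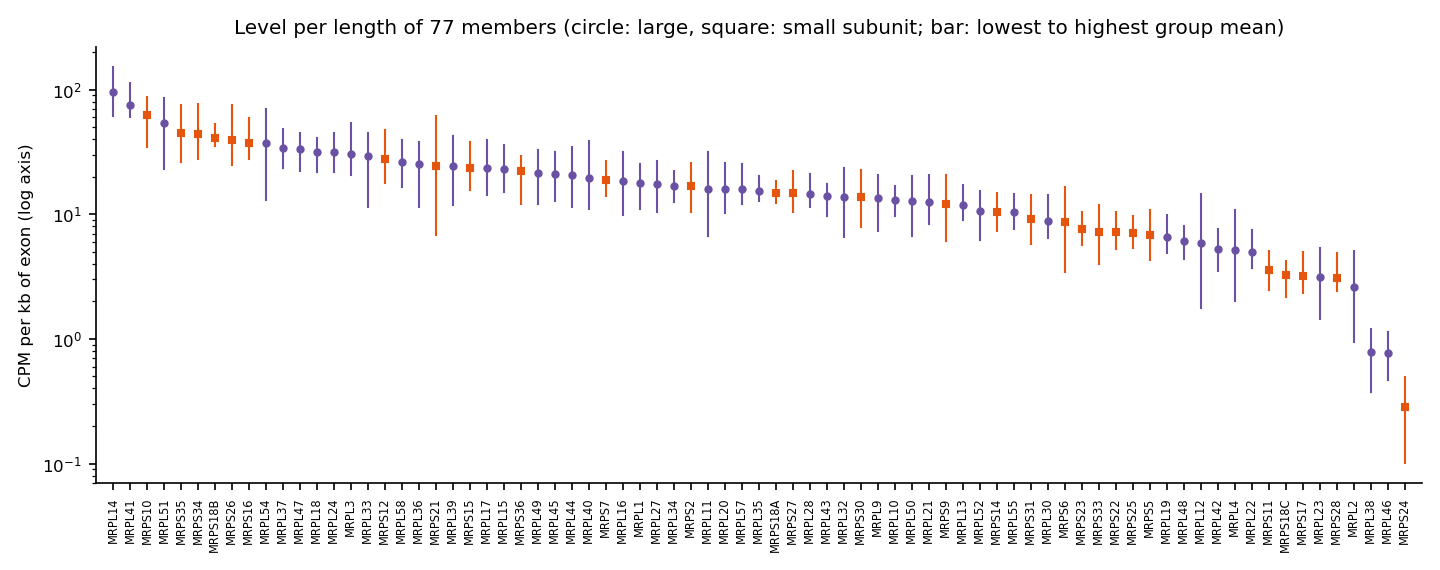
Mean mRNA level per length (CPM per kb, log axis) over the 24 libraries for the 77 tested genes, ranked, with circles for the large and squares for the small subunit and bars from the lowest to the highest of the 8 group means. MRPL14, MRPL41 and MRPS10 lead at 95.1, 75.8 and 62.9 CPM per kb, and MRPS24 and MRPL46 lie lowest among the genes tested.

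The summed counts of the 78 genes took up a larger share of each library after TGFβ. In untreated MI-spheres the shares were 0.328%, 0.326% and 0.331% of all counts, and after TGFβ 0.393%, 0.381% and 0.411%. In MII-spheres they were 0.294%, 0.292% and 0.291%, and after TGFβ 0.329%, 0.324% and 0.330%. Stimulated and untreated libraries did not overlap in either line. The ratio of means was 1.20 ± 0.047 (SD, n = 3 libraries a group) in MI and 1.12 ± 0.013 in MII. The large subunit accounted for more of it, with ratios of 1.24 in MI and 1.15 in MII against 1.16 and 1.09 for the small subunit. Counts of large-subunit genes over those of small-subunit genes went from a mean of 1.34 to 1.43 in MI and from 1.39 to 1.47 in MII. The mitochondrial genome's own transcripts moved the other way, from 0.744% to 0.487% of counts in MI and from 1.55% to 1.08% in MII. In bulk RNA, fewer cells of a kind and less RNA per cell cannot be told apart.

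**Figure D2:**
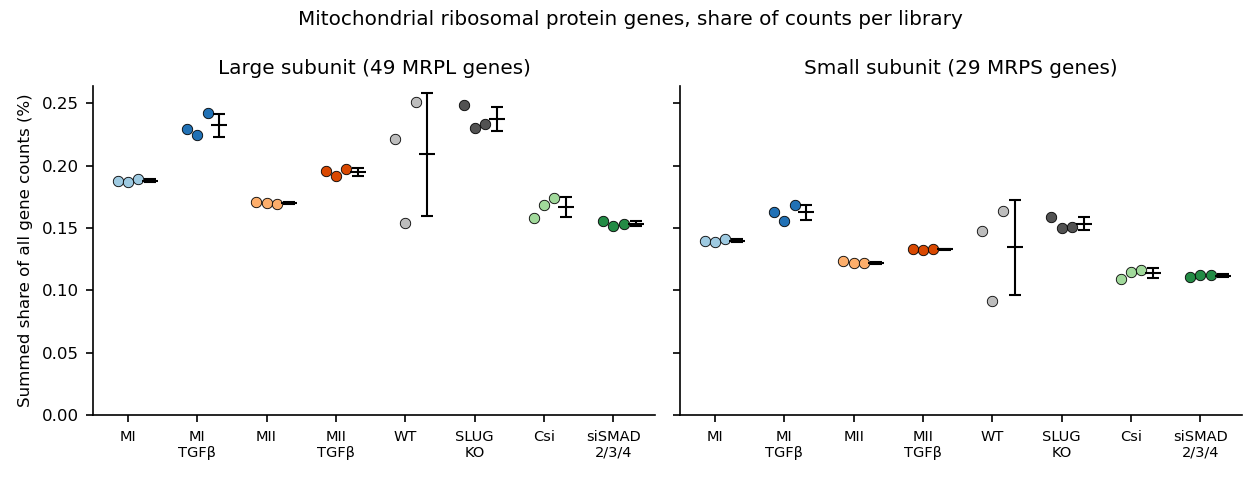
Share of all counts (percent) held by large- and small-subunit genes, 1 point per library with the group mean ± SD beside it, for the 8 groups. TGFβ-stimulated spheres lie above untreated spheres in both lines, and WT replicate 2 lies far below the other WT libraries.

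TGFβ raised most mitoribosomal protein mRNAs in MI-spheres. Of 77 genes tested, 67 were higher and 3 lower by edgeR's quasi-likelihood test at an adjusted p under 0.05, and 7 were not called. Among all 16863 genes tested, 28.7% were higher and 27.4% lower. The median log2 fold-change was 0.41 over the 77 genes and −0.02 over all genes. The large subunit had 43 genes higher and 2 lower of 48 with a median of 0.43, and the small subunit had 24 higher and 1 lower of 29 with a median of 0.34. Genes with a bacterial counterpart (41 higher and 1 lower of 48) and genes specific to mitochondria (26 higher and 2 lower of 29) both had mostly higher calls. All 67 higher genes had their 3 stimulated libraries above the 3 untreated ones. They were called on these same libraries, so this is no separate support. The share separated in this way among all called genes was not counted. The changes were small: the 67 higher genes ranged from 0.17 to 0.77 on the log2 scale, and 17 of them exceeded 0.5. MRPL2, MRPL4, MRPL12, MRPS14, MRPS15, MRPS18A and MRPS36 were the genes not called.

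MRPL16 and MRPL17, both large-subunit proteins with bacterial counterparts, had the largest rises. MRPL16 measured 29.95, 28.8 and 28.99 CPM in untreated MI-spheres and 54.6, 48.9 and 55.5 after TGFβ, a log2 fold-change of 0.77 ± 0.066 (SE, edgeR adjusted p = 3.40e-09). MRPL17, whose promoter with the NRF1 match is printed above, measured 45.01, 48.4 and 47.5 CPM untreated and 81.0, 76.3 and 89.8 after TGFβ, a log2 fold-change of 0.73 ± 0.063. Each gene's groups were clearly apart, with the lowest stimulated library well above the highest untreated one. MRPL24 followed with 43.4, 39.2 and 42.8 CPM against 66.7, 68.3 and 75.9 (log2 fold-change 0.67). MRPL40, which lies in the chromosomal region deleted in DiGeorge syndrome, went from 28.4, 31.2 and 32.5 to 46.99, 50.2 and 56.9 CPM, also 0.67 on the log2 scale.

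The 3 genes that fell in MI were MRPS24, MRPL38 and MRPL46, all of which share most of their coding bases with other genes. MRPS24 gave 31, 17 and 14 raw counts untreated and 4, 7 and 6 after TGFβ (log2 fold-change −1.87 ± 0.43, adjusted p = 0.000874), and it was the only member that changed more than 2-fold in this comparison. MRPL38 gave 51, 48 and 38 against 23, 25 and 32 counts (−0.82, adjusted p = 0.00831). MRPL46 gave 176, 171 and 130 against 117, 124 and 141 counts (−0.36, adjusted p = 0.0247), so its raw counts overlapped before scaling. DESeq2 called only 1 gene lower, MRPS24. Among the 69 genes with at most 50% of coding bases shared, 64 were higher and 0 lower in MI, and 69 of 69 fold-changes were positive. The median log2 fold-change over all genes was −0.02. Among the 37 genes without any exon overlap, 35 were higher and 0 lower.

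In MII-spheres the same treatment raised 55 of 77 genes and lowered 2, with 20 not called. Over all 16396 genes tested, 29.9% were higher and 27.6% lower. The median log2 fold-change was 0.29, against −0.02 over all genes. The large subunit had 36 higher and 2 lower of 48 (median 0.35), and the small subunit had 19 higher and 0 lower of 29 (median 0.21; 27 of 29 positive). Stimulated libraries lay above all untreated ones in 53 of the 55 higher genes, which were called on these same libraries. The share among all called genes was not counted. The 55 higher genes ranged from 0.13 to 0.62 on the log2 scale. All 7 genes not called in MI except MRPS36 were also not called in MII. Genes with a bacterial counterpart were higher in 33 of 48 and genes specific to mitochondria in 22 of 29.

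MRPL23 rose most in MII, from 3.84, 4.75 and 4.28 to 7.17, 7.40 and 6.05 CPM, a log2 fold-change of 0.62 ± 0.15 (adjusted p = 0.000496). MRPL48, printed above with an ETS match, went from 17.6, 15.8 and 16.8 to 23.95, 27.1 and 26.4 CPM (0.60 ± 0.082). MRPL17 went from 36.7, 39.5 and 34.8 to 51.2, 52.1 and 65.4 CPM (0.56), and MRPL16 from 20.1, 20.95 and 23.3 to 35.4, 31.2 and 29.5 CPM (0.54). Untreated and stimulated libraries did not overlap for any of these 4 genes. MRPL38 fell again (−0.64, adjusted p = 0.0291). MRPL55 was called lower at −0.23 (adjusted p = 0.0231), with libraries of 17.8, 20.0 and 19.3 CPM untreated and 17.3, 15.1 and 17.9 stimulated, which overlapped. Neither fall was called by DESeq2.

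The genes raised in both lines numbered 54, which is 80.6% of the 67 in MI and 98.2% of the 55 in MII, when 87.0% of all 77 genes were higher in MI and 71.4% in MII. Across the 77 genes, whose effects in MI and MII came from separate libraries, 74 had the same sign, and 56 had the larger value in MI. The same shares over all genes were not counted. As a description across genes, which are not independent replicates and share sequence composition and length effects, the effects correlated at r = 0.69 and rho = 0.53, and at r = 0.50 and rho = 0.49 over the 69 genes with mostly unshared coding bases. With library totals in place of TMM scaling, the median of all genes shifted to −0.15 in MI and −0.15 in MII. The large-subunit median was then 0.29 in MI and 0.21 in MII and the small-subunit median 0.20 and 0.08, and 56 genes in MI and 38 in MII were higher, with 3 and 4 lower. All genes then divided into 3271 higher and 6308 lower in MI and 3193 higher and 6407 lower in MII.

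**Figure D3:**
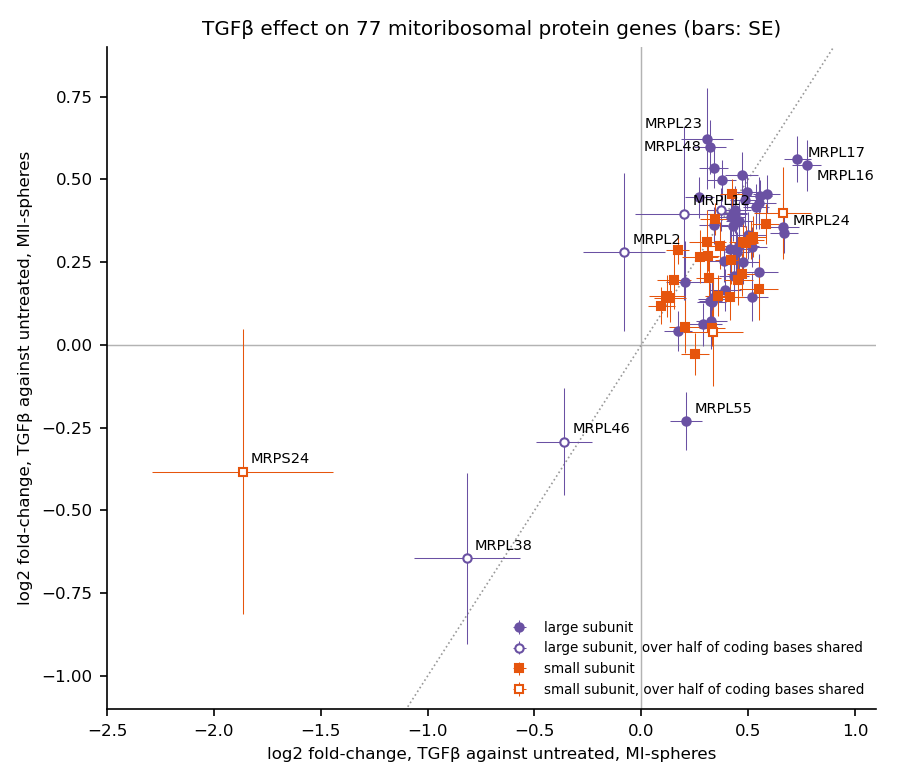
Log2 fold-change of each of the 77 genes with TGFβ in MI-spheres (horizontal) and MII-spheres (vertical), bars giving standard errors, open symbols marking genes with over 50% of coding bases shared and the dotted line marking equal effects. Most points sit in the upper right, with MRPL16 and MRPL17 farthest out in MI, and MRPS24 and MRPL38 on the negative side of both axes.

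Whether the response differed between lines was tested with the interaction of line and TGFβ over the 12 sphere libraries. It was lower in MII for 8 of 77 genes and higher for 0, where 9.75% of 18591 genes were lower and 12.6% higher. At an unadjusted p under 0.05 the counts were 24 lower and 3 higher, and DESeq2 called 5 lower and 0 higher. Unadjusted counts over all genes were not taken. The median difference was −0.12 on the log2 scale. In the edgeR fit of all genes and 12 libraries the share called lower was near that of all genes, but not in every alternative. MRPL55 differed most (−0.43 ± 0.12, adjusted p = 0.00569), followed by MRPS6 (−0.37), MRPL22 (−0.36) and MRPL50 (−0.33). The count depended on single libraries. It was 25 without MI TGFβ replicate 2 (2378 of all 19276 genes) and 13 without MII TGFβ replicate 3 (1902 of 19528). It was 5 without MII untreated replicate 1 (1601 of 19267) or 2 (1604 of 19112). With protein-coding genes alone in the fit it was 21 (2100 of 13516).

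Without TGFβ, mitoribosomal protein mRNAs were mostly lower in transformed MII-spheres than in MI-spheres. Of 77 genes, 56 were lower, 7 higher and 14 not called, beside 32.5% lower and 31.7% higher among 17862 genes. The median log2 fold-change was −0.31 against 0.02 over all genes. The large subunit had 36 lower and 4 higher of 48, and the small subunit 20 lower and 3 higher of 29. Their share of counts was 0.891 ± 0.0084 times that in MI. In 55 of the 56 lower genes, called on these same libraries, all MII libraries lay below all MI libraries. The share among all called genes was not counted. With library totals the median of all genes shifted to 0.11, and 43 genes of the family were lower and 9 higher. Of all 17862 genes tested, 4745 were then lower and 6669 higher. This comparison uses the same untreated libraries as both TGFβ comparisons, so the 3 sets of values are not independent.

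MRPS26, a small-subunit protein specific to mitochondria, measured 57.9, 49.1 and 56.0 CPM in MI and 25.4, 28.4 and 27.6 in MII (log2 fold-change −0.98 ± 0.063, adjusted p = 4.69e-20). MRPS21, the counterpart of bacterial S21, measured 64.2, 70.97 and 67.2 CPM in MI and 36.7, 35.3 and 36.5 in MII (−0.89 ± 0.056). Both small-subunit mRNAs were lower in every MII library, by nearly the same factor. MRPL11 (−0.76) and MRPL4 (−0.65) fell less. MRPL50 went against the rest, with 32.3, 33.1 and 38.8 CPM in MI and 58.2, 53.5 and 57.8 in MII (0.71 ± 0.062, adjusted p = 4.96e-15). MRPL41, MRPL49 and MRPS30 were also higher in MII, by 0.35, 0.29 and 0.26 on the log2 scale.

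**Figure D4:**
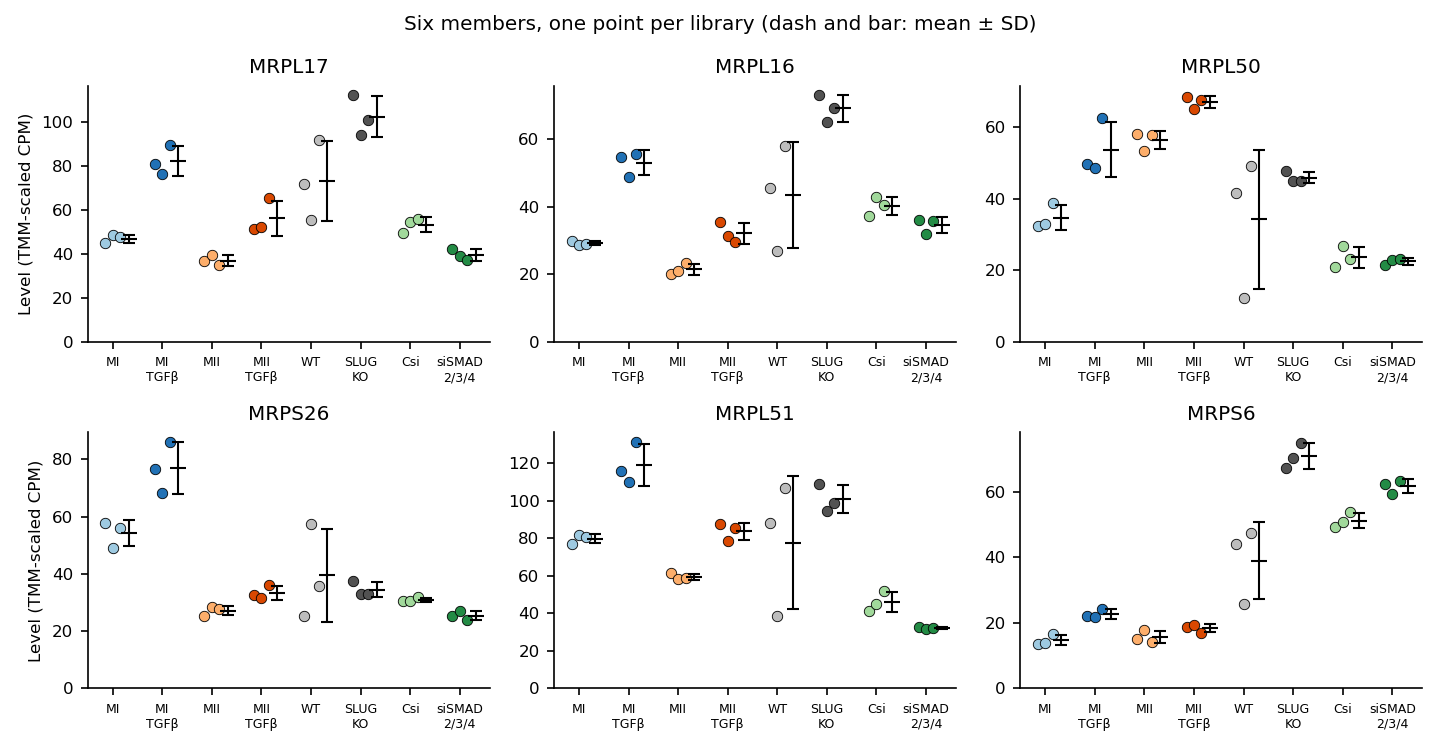
TMM-scaled CPM of MRPL17, MRPL16, MRPL50, MRPS26, MRPL51 and MRPS6, 1 point per library in each of the 8 groups with the group mean ± SD beside it. MRPL17 and MRPL16 lie higher in stimulated than untreated spheres, MRPS26 lower and MRPL50 higher in MII than MI, and WT replicate 2 departs from its group in several panels.

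The siRNAs against SMAD2, SMAD3 and SMAD4, which transmit TGFβ signals to the nucleus, lowered fewer genes and by less. In MDA-MB-231, 25 of 77 genes were lower, 4 higher and 48 not called, beside 19.7% lower and 16.3% higher among 17696 genes. The median log2 fold-change was −0.07, against 0.00 over all genes. The large subunit had 18 lower and 1 higher of 48 (median −0.12), and the small subunit 7 lower and 3 higher of 29 (median −0.04). The ratio of shares was 0.920 ± 0.047 for the large and 0.984 ± 0.035 for the small subunit, and small-subunit shares of the groups overlapped. Transcripts of the mitochondrial genome held 4.37% of counts in Csi (3.81 to 4.95% over libraries) and 5.37% with the siRNAs (4.87 to 6.02%), so these groups overlapped.

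MRPL51 fell most, from 41.5, 44.8 and 51.9 CPM in Csi to 32.6, 31.8 and 32.2 (log2 fold-change −0.52 ± 0.065, adjusted p = 9.38e-08). Its exons share bases with NCAPD2 on the opposite strand, outside its coding part. MRPL52 measured 23.2, 29.2 and 29.5 CPM in Csi and 22.8, 19.5 and 17.7 with the siRNAs (−0.46), and MRPL54 15.3, 15.5 and 20.8 against 14.3, 11.99 and 12.04 (−0.43). MRPL17 measured 49.3, 54.6 and 55.9 CPM in Csi and 42.2, 39.3 and 37.1 with the siRNAs (−0.44 ± 0.057). For these 4 genes every siRNA library lay below every Csi library, in some cases by a small margin. MRPS6 was higher, with 49.2, 50.6 and 53.9 CPM in Csi against 62.5, 59.4 and 63.4 (0.26 ± 0.051), as were MRPS18A and MRPS21 (0.24 each) and MRPL45 (0.14). Of the 25 lower genes, 22 (88.0%) were among the 67 raised by TGFβ in MI, which is 32.8% of those 67, and 19 (76.0%) were among the 55 raised in MII, which is 34.5% of those 55. Of all 77 genes tested, 87.0% were higher in MI and 71.4% in MII, so the lower genes held such genes at about the share of the family as a whole. With the flow cell in the deposited file names as a term, 15 genes were lower and 1 higher, when 2489 of all 17696 genes tested were lower. Libraries 1 and 2 of siSMAD2/3/4 carry another flow cell in their file names than the other 4 libraries of this comparison, so flow cell and siRNA are partly confounded. Without Csi replicate 3, 15 genes were lower, when 2981 of all 18118 genes tested were lower.

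No gene passed the test between the libraries labelled SLUG KO and WT, where 1.45% of 17428 genes were higher and 1.89% lower. The edgeR and DESeq2 counts were 0 higher and 0 lower, and at an unadjusted p under 0.05, 5 genes were higher and 0 lower. The median log2 fold-change was 0.21, with 62 of 77 positive, against a median of −0.05 over all genes. The mitoribosomal share of counts was 0.369%, 0.246% and 0.415% in WT and 0.408%, 0.381% and 0.385% in SLUG KO, so the low value of WT replicate 2 widened the WT range over that of the KO. In that library MRPS36 measured 3.23 CPM beside 39.2 and 49.2 in the other WT libraries, MRPS10 68.7 beside 209 and 255, and MRPL41 69.4 beside 29.2 and 35.0.

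Without WT replicate 2, 15 genes were higher and 3 lower, when 3013 of all 17909 genes tested were higher and 2579 lower. MRPS6 measured 67.3, 70.4 and 75.004 CPM in SLUG KO and 44.1 and 47.3 in the other WT libraries, a log2 fold-change of 0.62 ± 0.094 without replicate 2 (edgeR adjusted p = 0.000108). MRPL11 (0.58) and MRPS5 (0.52) were the next highest. MRPL19 was lower at −0.56, with 44.8, 43.3 and 43.7 CPM in SLUG KO against 63.0 and 65.2 in the other WT libraries. MRPL2 (−0.47) and MRPS10 (−0.35) were the other lower genes. MRPL41 and MRPS10 changed sign with that library left out, MRPL41 from −0.14 to 0.35 and MRPS10 from 0.02 to −0.35. Of the genes that passed the test in neither fit, MRPL12 (−0.43 to 0.81), MRPL14 (0.20 to −0.07), MRPS18B (0.05 to −0.20), MRPS18C (0.05 to −0.31) and MRPS36 (0.45 to −0.07) also crossed 0. These genes were chosen after their values were seen.

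**Figure D5:**
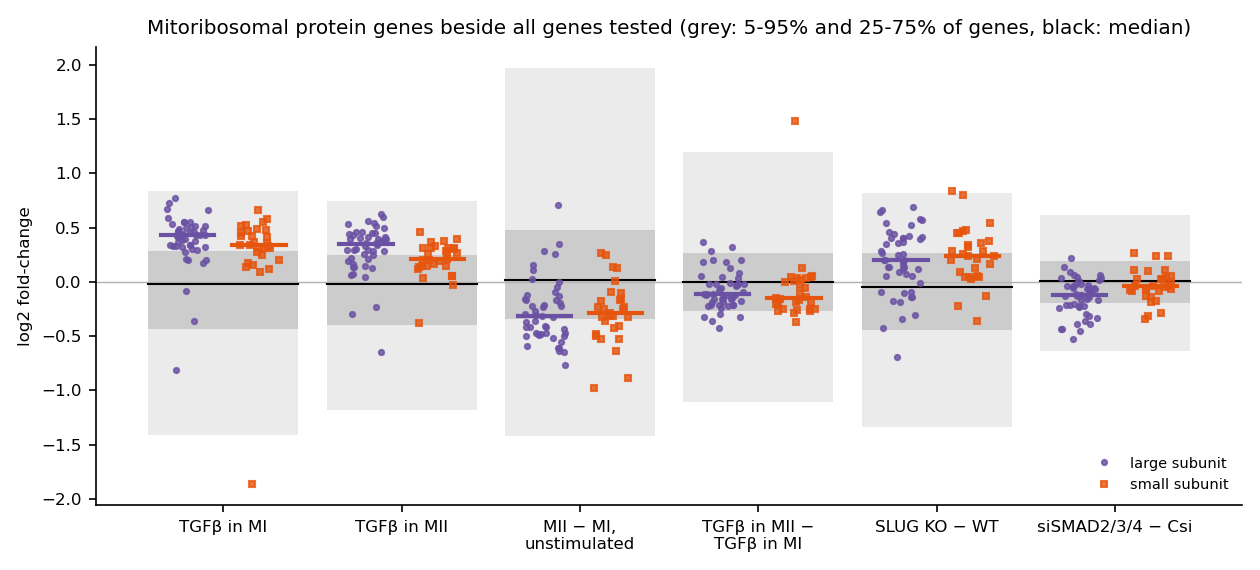
Log2 fold-change of each mitoribosomal protein gene in the 6 comparisons, large and small subunit apart, beside the spread of all genes tested (grey bars for the 5 to 95% and 25 to 75% ranges, black lines for their median, colored lines for the median of each subunit). Points shift up with TGFβ in both lines and down in MII against MI. With siSMAD2/3/4 most lie slightly below the median of all genes, 56 of 77 being negative.

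Values of the 3 paralogs of bacterial S18 are given side by side, with no test between them. MRPS18B rose in MI (0.33, adjusted p = 0.000129), measured 0.05 in MII (adjusted p = 0.418), and its response differed between the lines (−0.27, adjusted p = 0.0146). MRPS18C rose in both (0.31 in each). MRPS18A measured 0.15 in MI and 0.20 in MII without passing the test (adjusted p = 0.100 and 0.0519), and was the only one of the 3 called higher with the SMAD siRNAs.

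Other genes with special roles also varied. MRPL10 and MRPL12 form part of the stalk that recruits translation factors, and MRPL12 also binds the mitochondrial RNA polymerase. MRPL10 rose in MI (0.29, adjusted p = 0.00725), with 0.06 in MII (adjusted p = 0.415). MRPL12, which shares 96.0% of its coding bases, was not called in either sphere line (adjusted p = 0.481 and 0.193) but fell with the SMAD siRNAs (−0.32, adjusted p = 0.00840). MRPL58, a peptidyl-tRNA hydrolase that frees stalled chains, rose in both lines (0.50 in MI and 0.33 in MII), was lower in MII than MI (−0.17) and fell with the SMAD siRNAs (−0.23). MRPS30 rose by 0.17 in MI and 0.29 in MII. MRPS36 measured 0.12 in MI (adjusted p = 0.229) and rose by 0.15 in MII. Over the alternative fits MRPS30 in MI ranged from 0.03 to 0.21 and MRPS36 in MII from 0.02 to 0.25. Not every alternative called these rises. Among the genes with the highest levels, MRPL14 rose by 0.32 and 0.13, MRPL41 by 0.38 and 0.50 and MRPS10 by 0.34 and 0.38 in MI and MII. The MRPL14 value in MII ranged from 0.002 to 0.39 over the alternative fits, and not every one called it.

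Counts for mitoribosomal proteins with other symbols and for genes of related steps stand beside 28.7% of all genes higher with TGFβ in MI and 29.9% in MII, and 27.4% and 27.6% lower. Of DAP3, PTCD3, CHCHD1, AURKAIP1 and GADD45GIP1, 4 of 5 rose in MI and 5 of 5 in MII. GADD45GIP1 rose most (0.50 and 0.47), and PTCD3 measured 0.04 in MI (adjusted p = 0.566) and 0.15 in MII. Mitochondrial aminoacyl-tRNA synthetases, which charge the organelle's tRNAs, were higher in 13 of 16 tested in MI and 9 of 16 in MII, with 0 lower in either. YARS2 (0.49) and WARS2 (0.46) led in MI, and LARS2 (0.43) and AARS2 (0.41) in MII. Assembly and rRNA modification factors were higher in 17 of 26 in MI with 0 lower, and in 12 of 26 in MII with 2 lower. C1QBP led both, at 0.80 and 0.71, with MALSU1 (0.46) next in MI and MPV17L2 (0.42) in MII, where METTL17 and MTERF4 fell by 0.17 each.

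Of 17 translation factors, 8 were higher and 2 lower in MI, and 5 were higher and 0 lower in MII, where the 5 make up 29.4%, close to the share of all genes. SLIRP, which stabilizes mitochondrial mRNAs with LRPPRC, rose by 0.73 and 0.65, and TUFM, the elongation factor Tu, by 0.47 and 0.36. The release factor MTRF1 and the elongation factor GFM1 were lower in MI, at −0.21 and −0.16. Of 11 genes for mitochondrial DNA upkeep and transcription, 6 were higher and 0 lower in MI, and 5 higher and 2 lower in MII. TFB2M (0.57) and the helicase TWNK (0.51) led in MI, TFAM (0.38) and SSBP1 (0.36) in MII, where POLG2 and TOP1MT were lower at −0.76 and −0.29. Between untreated lines, MII was lower than MI in 4 of 5 other mitoribosomal proteins, 10 of 16 synthetases, 13 of 26 assembly factors, 8 of 17 translation factors and 4 of 11 mitochondrial DNA genes, beside 32.5% of all genes. With the SMAD siRNAs the lower counts were 2, 5, 6, 2 and 3 of 5, 17, 26, 17 and 11, beside 19.7% of all genes, and between SLUG KO and WT 0 genes of these lists were called.

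A protein-coding gene started within 1000 bp in the opposite direction next to 28 of the 78 genes. Of 24 such neighbours tested that were not themselves in the family, 8 were higher and 6 lower with TGFβ in MI (median log2 fold-change −0.00), and 9 were higher and 7 lower in MII (median −0.11). MRPL18 and its neighbour TCP1, a chaperonin subunit, both rose, by 0.27 and 0.28 in MI and 0.45 and 0.43 in MII. MRPL50 and ZNF189, with starts 233 bp apart, were both higher in MII than MI, by 0.71 and 0.70. MRPL21 and IGHMBP2, with starts 28 bp apart, moved in opposite directions with TGFβ in MI (0.47 and −0.54), and so did MRPL49 and FAU, 6 bp apart, between MII and MI (0.29 and −0.41). These pairs were chosen after their values were seen.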

How the data were processed

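RNA-seq reads of ribosome-depleted libraries were trimmed with Trimmomatic, aligned with STAR and counted by the authors with featureCounts (Subread 2.0.0) on GRCh38.p13, at a mapping quality of at least 30, without strand. The deposited values are raw counts per gene and library. Fragments on several genes or places were left out. Symbols of a later GENCODE release matched 60463 of 60708 genes. 16 ATAC-seq samples were not analysed here.

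Each comparison was fitted on its own groups over the whole table with edgeR 4.0.16 (TMM scaling, filterByExpr, quasi-likelihood test) in R 4.3.3, and p-values were adjusted over every tested gene by the Benjamini-Hochberg method. Genes were called at an adjusted p under 0.05. CPM values are TMM-scaled over 24 libraries, so their ratios can differ from fitted fold-changes. DESeq2 1.42.0, other scalings, filters, a replicate block, length and GC-content trends (the latter chosen after seeing the data) and leaving out each library were alternatives. On simulated data with 200 changed genes, edgeR recovered 83.5% for TGFβ in MI-spheres (16863 genes) and 14.5% for SLUG KO against WT (17428 genes). The planted changes were at least 1 on the log2 scale, larger than the rises reported for members. These rates therefore do not give the recovery of changes as small as theirs.

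Members and lists were chosen with earlier results of these data known. Named were the 4 largest rises and falls among called members per comparison, the 3 highest and lowest levels per length, members with special roles or failing the filter, and the 2 largest rises and falls per related list.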

Additional observations from a re-analysis of the deposited data

Results flagged for a closer look

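For 8 of 77 genes the response to TGFβ was smaller in MII-spheres than in MI-spheres. The test was of the difference itself (edgeR's quasi-likelihood test of the interaction, adjusted p under 0.05). These 8 make up 10.4% of the family, close to the 9.75% lower among all 18591 genes tested. Leaving out single libraries gave 5 to 25 such genes, the 25 beside 2378 of all 19276 genes. MRPL55, a large-subunit protein, differed by −0.43 on the log2 scale, rising in MI libraries from 22.0, 21.5 and 24.2 to 26.2, 28.1 and 28.3 CPM while in MII it measured 17.8, 20.0 and 19.3 against 17.3, 15.1 and 17.9 CPM. MRPS6 differed by −0.37, MRPL22 by −0.36 and MRPL50 by −0.33. MRPL24 differed by −0.32 and MRPL40 by −0.30. MRPS18B and MRPS25 differed by −0.27 each. MRPS25 measured 41.8, 43.0 and 38.9 CPM untreated and 53.0, 48.2 and 55.02 stimulated in MI, and 43.5, 41.2 and 39.2 against 39.2, 41.5 and 43.6 CPM in MII, where the groups overlapped. The adjusted p of MRPL55 was 0.00569 and that of MRPS6 0.0401.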

How the results depend on the processing

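Counts of called genes stayed within 1.5 times of those reported in 188 alternatives and not in 48, and 223 subunit medians moved by less than the median standard error of their genes and 13 by more. A log2 fold-change over 0.5 left 17 genes higher with TGFβ in MI, 6 higher and 1 lower in MII, 1 higher and 14 lower in MII against MI, 0 lower in the interaction, and 0 higher and 1 lower with siSMAD2/3/4. Called genes over that size were not counted among all genes. Genes without exon overlap gave 35 higher and 0 lower in MI, 30 higher and 1 lower in MII, 26 lower in MII against MI, and 2 higher and 12 lower with siSMAD2/3/4. DESeq2 called 1 lower in MI, 0 lower in MII and 5 lower in the interaction, beside 3176 of 21670, 3049 of 20403 and 1519 of 15763 among all genes. Without a low-count filter, 0 were lower in MII, 5 lower in the interaction and 2 higher with siSMAD2/3/4. Of all genes, 4374 of 38158, 1526 of 46249 and 2626 of 35336 were then called in these directions. Lower calls in MII numbered 4 with library totals, 1 with the gene-length trend, 1 with all 12 sphere libraries in 1 fit and 0 with the GC-content trend. Over all genes, 6407 of 16396, 4126 of 16396, 4081 of 18591 and 4332 of 16396 were lower in these fits. The GC-content trend also gave 1 higher and 1 lower for SLUG KO (1124 and 1014 of all 17428 genes). For siSMAD2/3/4 it gave 7 higher (3434 of all 17696 genes). Protein-coding genes alone gave 21 lower in the interaction, beside 2100 of all 13516 in that fit. The flow cell as a term gave 1 higher and 15 lower for siSMAD2/3/4, beside 1873 and 2489 of all 17696 genes. Leaving out single libraries gave 61 to 67 higher and 2 to 3 lower in MI, 50 to 56 higher and 0 to 2 lower in MII, 5 to 7 higher and 51 to 58 lower in MII against MI, 0 to 2 higher and 5 to 25 lower in the interaction, 0 to 15 higher and 0 to 3 lower for SLUG KO, and 2 to 3 higher and 15 to 27 lower for siSMAD2/3/4. Calls over all genes also varied between these fits, up to 2378 of 19276 lower in the interaction and 3013 of 17909 higher for SLUG KO. In MI 4409 to 5015 of 17041 to 18060 genes were higher, and in MII 4658 to 4825 of 16694 to 17192. In MII against MI 5604 to 5787 of 18289 to 18800 were lower, and with siSMAD2/3/4 2981 to 3452 of 18076 to 18312. For the named members, 1735 alternative results kept the call, 90 lost it, 43 gained one and 2 reversed. Without WT replicate 2, MRPL41 (0.35) and MRPS10 (−0.35) reversed, in ranges over single libraries left out of −0.34 to 0.35 and −0.35 to 0.37. Same-numbered replicates did not deviate together (correlations −0.123 to 0.032). This does not settle whether a number marks a shared culture or day, which the labels do not say. With the replicate block, 68 genes were higher and 3 lower in MI, 53 and 2 in MII, 7 and 56 in MII against MI, 0 and 8 in the interaction, 0 and 0 for SLUG KO, and 4 and 23 for siSMAD2/3/4. Over all genes the block gave 5050 higher and 4783 lower of 16863 in MI, and 4785 and 4347 of 16396 in MII. MII against MI gave 5548 and 5749 of 17862, and the interaction 2401 and 1872 of 18591. SLUG KO gave 87 and 168 of 17428, and siSMAD2/3/4 gave 2852 and 3456 of 17696. With the block and the gene-length trend, 1 was lower in MII, beside 3977 of all 16396 genes. As a share of nuclear protein-coding counts, the ratio of MII to MI was 0.856 for the family, 0.868 for the large and 0.839 for the small subunit. The causes of these shifts were not tested. MRPL53, MRPS24 and MRPL38 yielded few counts, which limits their values.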
